A study of Mus musculus with 56 samples.

Results

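Neuropeptides are small signalling molecules that neurons cut from longer precursors, store in dense-core vesicles and release mainly during strong firing. Secretogranins, VGF, brain-derived neurotrophic factor (BDNF) and neuronal pentraxin 2 leave the cell by related routes, and several of their genes are known to be transcribed more when neurons fire. In the hippocampus the precursor genes mark cell classes: neuropeptide Y, somatostatin and cholecystokinin are made by sets of inhibitory interneurons, prodynorphin by dentate granule cells, and cholecystokinin mRNA also by pyramidal neurons. The genes described here are 10 such genes: Npy, Sst, Penk, Pdyn, Cck, Tac1, Bdnf, Vgf, Nptx2 and Scg2. They were chosen by name, with earlier results of these data known. No probe with a single gene name was annotated to Penk, the proenkephalin precursor, so it was not analysed here. The other 9 genes each had a probe with a detection p under 0.05 on 56 of 56 arrays, and they were tested among 9893 genes in all.

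The data are microarray profiles of hippocampal total RNA from 56 adult male NMRI mice over 12 weeks old, with 1 array per mouse. Status epilepticus was induced in the epileptic animals with pilocarpine, a muscarinic agonist, after N-methylscopolamine had been given to limit its effects outside the brain, and was stopped with diazepam. The epileptic mice then received by daily oral gavage either vehicle (17 mice), PLX3397 at 3 mg/kg (18 mice) or PLX3397 at 30 mg/kg (15 mice), and 6 naive mice without epilepsy received vehicle. PLX3397 inhibits the kinase of the colony stimulating factor 1 receptor (Csf1R), on which microglia depend, and also that of c-Kit. The sample labels give 7 days of treatment, whereas the series text and the study's methods describe a longer course, so no time is attached to the values. The naive mice were added to the experiment separately according to the series text. Median raw signal ran from 109.2 to 150.8 over the arrays and 44.3% to 49.8% of probes were detected. Of the neuronal and regional markers checked, Prox1 of dentate granule cells, Fibcd1 of CA1 neurons and Gad1 of interneurons were detected on all 56 arrays, as were Gfap of astrocytes and Drd1 and Ppp1r1b, which are abundant in striatum, and the probe of Snap25 on none. Ttr, a choroid plexus gene, ranged from 8.83 to 14.32 (log2 signal) between mice, with a median of 13.6. The RNA came from whole tissue, so fewer cells of a type and less RNA per cell cannot be told apart in any value below.

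Promoter sequences were examined because part of the group varied together between mice, as described further on. RefSeq (assembly GRCm38.p6) gave promoters for 7 of the 10 genes, at 14 start sites: 7 for Bdnf, 2 for Pdyn and 1 each for Npy, Sst, Cck, Tac1 and Scg2. Penk, Vgf and Nptx2 had no promoter there and were not searched. The 250 bases before each start site were searched on both strands for the cyclic AMP response element TGACGTCA, which binds CREB-family factors, and for its core TGACG, which also lies inside each full element. The full element is in 508 of the 32851 promoters of the table (1.55%) and the core in 5836 (17.8%). Among the members searched, Sst and Scg2 carry the full element, Cck, Tac1 and Bdnf start site 3 carry the core alone, and neither is in the window of Npy or of Pdyn. The 65 bases around 1 match of each are shown (Tac1 has another core match further upstream) so that the members which share the letters can be set against the members which share a pattern of expression. Each is printed 5′ to 3′ on the gene's strand with the match in capitals (only the 5 letters CGTCA, the core read on the other strand, where the full element is incomplete).
Sst, chr16:23890855-23890919, minus strand, 75 to 11 bases before the start: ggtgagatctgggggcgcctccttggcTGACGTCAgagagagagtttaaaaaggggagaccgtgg
Scg2, chr1:79440057-79440121, minus strand, 95 to 31 bases before the start: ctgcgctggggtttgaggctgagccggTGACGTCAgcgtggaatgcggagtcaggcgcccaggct
Bdnf start site 3, chr2:109692371-109692435, plus strand, 65 to 1 bases before the start: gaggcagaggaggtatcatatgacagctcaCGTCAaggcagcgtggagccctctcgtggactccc
Cck, chr9:121495707-121495771, minus strand, 77 to 13 bases before the start: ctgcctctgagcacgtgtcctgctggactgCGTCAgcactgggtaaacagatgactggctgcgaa
Tac1, chr6:7554988-7555052, plus strand, 73 to 9 bases before the start: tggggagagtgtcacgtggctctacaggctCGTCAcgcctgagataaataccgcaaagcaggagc
These are matches of letters in a sequence and do not show that a factor was bound.

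The first comparison asked how these genes differ between epileptic and naive mice given vehicle. Of the 9 measured genes, Npy and Pdyn were higher in epileptic mice (2 of 9, where 22.6% of all 9893 genes were called higher) and Cck, Sst and Vgf were lower (3 of 9, where 26.5% were called lower), by limma with Benjamini-Hochberg adjustment over all genes. The shares are near those of the whole array, so the count says little about the group, and the members are described one by one. Bdnf, Nptx2, Scg2 and Tac1 did not pass. All levels are log2 quantile-normalised signal and all changes are differences on that scale.

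Npy encodes neuropeptide Y, an inhibitory peptide of interneurons that is known to appear also in granule cells after seizures. Its gene lies at chr6:49822710-49829507 (GRCm38.p6). In the 6 naive mice the Npy signal ran from 10.33 through a median of 10.59 to 10.70, and in the 17 epileptic vehicle mice from 10.11 through 11.48 to 13.22. Of the epileptic vehicle mice, 14 of 17 lay above the highest naive mouse and 1 lay below the lowest. The mean difference was 1.01 (SE 0.40, 2.02-fold, 95% interval 0.22 to 1.81), with an adjusted p of 0.029 by limma. The SD was 0.13 in naive and 0.86 in epileptic vehicle mice, a ratio of 6.64 that ranked 66 among the 9893 genes, where the median gene had a ratio of 1.35. These SD ratios are a description and were not tested. Without naive replicate 2, the lowest of the 6, the adjusted p was 0.0586, and it was 0.0616 with sets of consecutive sample numbers as a block.

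Pdyn encodes prodynorphin, the precursor of the dynorphin opioids, and lies at chr2:129686549-129699938. Its signal was 8.69, 9.03 and 9.22 (lowest, median and highest) in naive mice and 9.12, 9.56 and 11.46 in epileptic vehicle mice. Every one of the 17 epileptic mice was above the naive median and 13 of 17 were above the highest naive mouse. The mean difference was 0.64 (SE 0.25, 1.55-fold, interval 0.13 to 1.15, limma adjusted p 0.0334). Its second probe, of lower signal (mean 7.46) and with r = 0.88 to the first across mice, differed by 0.14 (limma adjusted p 0.287). The Pdyn call was also lost after scaling arrays to 1 median instead of quantile normalisation (0.44, adjusted p 0.178), without epileptic vehicle replicate 6, the highest mouse (adjusted p 0.0524), and without any of naive replicates 2, 3, 4 and 6 (up to 0.0827).

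Cck, the cholecystokinin gene (chr9:121489824-121495694), was the member most clearly lowered. The 6 naive mice gave 12.30, 12.17, 12.33, 12.06, 12.13 and 12.16, and the 17 epileptic vehicle mice ran from 11.06 through a median of 11.59 to 11.88. The groups did not overlap, with all 17 epileptic mice below all 6 naive mice; of all genes, 8.6% were lower without overlap. The difference was -0.67 (SE 0.10, 0.63-fold, interval -0.86 to -0.47, limma adjusted p 9.39e-08).

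Sst encodes somatostatin, an inhibitory peptide of dendrite-targeting interneurons (chr16:23889573-23891342). The signal was 10.83, 11.22 and 11.46 (lowest, median, highest) in naive mice and 10.26, 10.70 and 11.12 in epileptic vehicle mice. All 17 epileptic mice were under the naive median and 12 of 17 under the lowest naive mouse, so the groups overlapped in part. The difference was -0.48 (SE 0.12, 0.715-fold, limma adjusted p 0.000631). In contrast to Npy, the spread of Sst was about the same in both groups (SD 0.24 and 0.23, a ratio of 0.96).

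Vgf encodes a secreted precursor that neurotrophins induce (chr5:137025301-137033351). Naive mice gave 9.80, 10.01 and 10.21 (lowest, median, highest), and epileptic vehicle mice 8.51, 9.19 and 11.32. The Vgf signal of 14 of 17 epileptic mice was under the lowest naive mouse. Of the 2 above the highest naive mouse, replicate 2 at 10.22 barely exceeded it and replicate 6 was at 11.32. The gene was thus low in most animals and well above the naive range in replicate 6 alone, which also enters the SD. The mean difference was -0.68 (SE 0.24, 0.624-fold, interval -1.16 to -0.20, limma adjusted p 0.0143), and the SD was 0.13 and 0.69, a ratio of 5.13 that ranked 142.

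Bdnf, Nptx2 and Scg2 had medians in epileptic vehicle mice a little above naive ones and long upper tails. Bdnf (chr2:109674700-109727043), the ligand of the receptor TrkB, gave 8.51, 8.77 and 8.92 in naive and 8.67, 8.95 and 10.84 in epileptic vehicle mice (lowest, median, highest). The naive range of Bdnf was exceeded by 9 of 17 epileptic mice. Nptx2 (chr5:144545887-144557478), a secreted pentraxin that gathers AMPA receptors at excitatory synapses, gave 8.02, 8.35 and 8.46 against 8.11, 8.55 and 11.09, also with 9 of 17 above the naive range. Scg2 (chr1:79434366-79440026), the granin from which secretoneurin is cut, gave 10.67, 10.77 and 10.93 against 10.58, 11.00 and 12.79, with 10 of 17 above it. The mean differences were 0.39 (SE 0.29), 0.49 (SE 0.38) and 0.40 (SE 0.22), with limma adjusted p of 0.273, 0.294 and 0.122, so none passed. Their SD ratios to naive mice were 4.02, 3.83 and 5.79. A second Bdnf probe followed the first (r = 0.96) and was detected in 2 of 6 naive and 14 of 17 epileptic vehicle mice; it differed by 0.52 (limma adjusted p 0.17). The third Bdnf probe was detected on 0 arrays.

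Tac1, the precursor of substance P and neurokinin A (chr6:7555061-7562978), was alike in level in the naive (7.97, 8.00 and 8.24) and epileptic vehicle mice (7.56, 7.98 and 8.47). The difference of -0.06 had an interval of -0.30 to 0.19 (limma adjusted p 0.746).

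**Figure D1:**
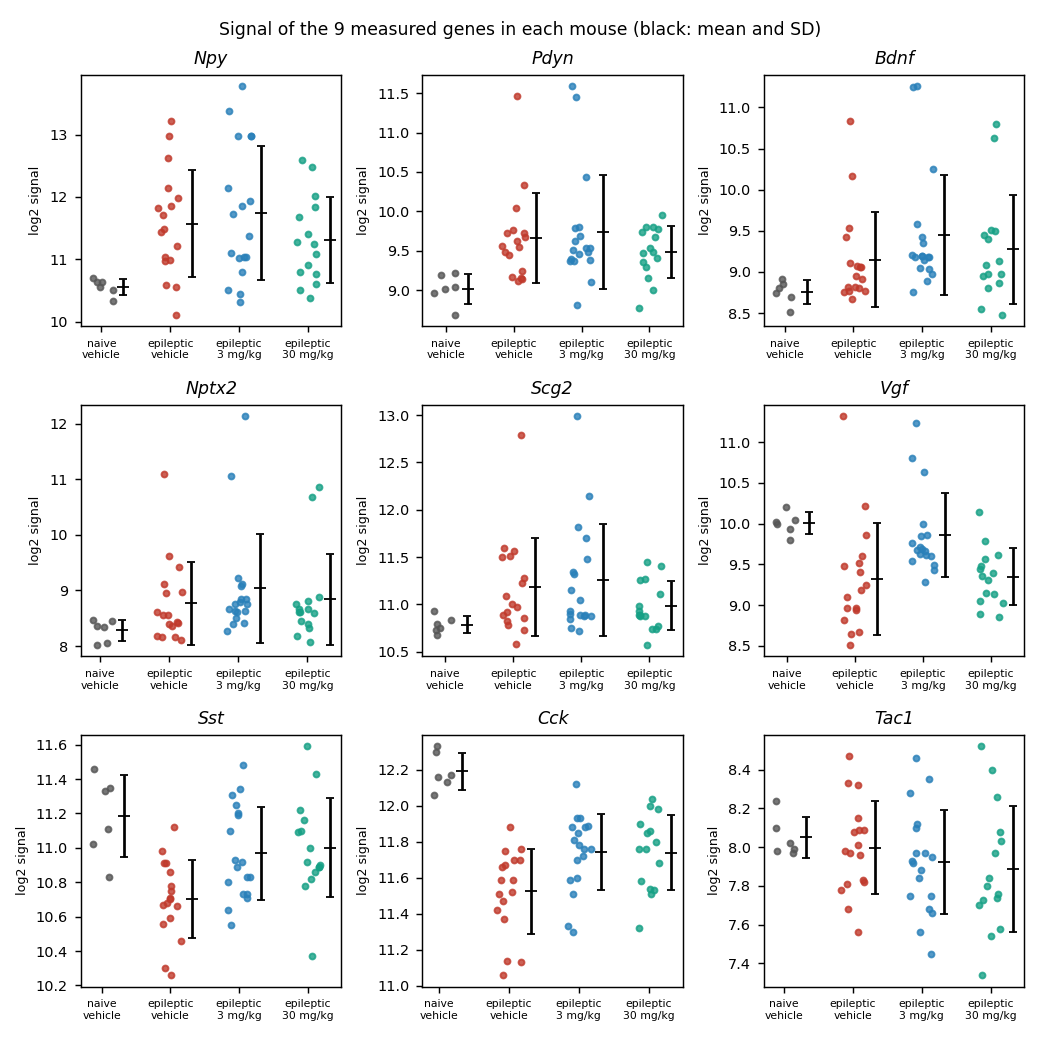
Log2 quantile-normalised signal of the 9 measured genes, 1 point per mouse in the 4 groups (6 naive, 17 epileptic vehicle, and 18 and 15 under the 3 and 30 mg/kg doses), with group means and SD. All 17 epileptic vehicle mice lie below the naive mice for Cck, while for Nptx2 5 epileptic mice lie at 10.68 or more and the other 51 mice at 9.62 or less.

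The arrays fall into 2 runs of submitter sample numbers, and the 5 called differences had the same sign in both. In the first run (11 epileptic vehicle and 3 naive mice) and the second (6 and 3) they were 1.16 and 0.76 for Npy, 0.78 and 0.40 for Pdyn, -0.71 and -0.64 for Cck, -0.37 and -0.52 for Sst and -0.57 and -0.92 for Vgf.

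Values for cell markers moved with these differences, and their part in them was not tested. Of 16 measured interneuron markers, 11 were lower in epileptic vehicle mice and 0 higher, including Slc32a1, the vesicular GABA transporter (-0.81), and Reln (-0.64). The mean centred level of that list was 0.14 to 0.30 in naive and -0.24 to -0.04 in epileptic vehicle mice. Of 17 pyramidal neuron markers, 8 were lower and 1 higher (naive 0.19 to 0.39, epileptic vehicle -0.56 to 0.12), with Fibcd1 at -1.73. Of 16 pan-neuronal markers, 12 were lower and 1 higher (0.19 to 0.30 against -0.23 to -0.09). Dentate granule cell markers, whose cells express Pdyn, went less one way: 2 of 10 were higher, C1ql2 by 1.42 and Rasl10a by 0.69, and 1 was lower (-0.45 to -0.12 against -0.26 to 0.28). Of 14 astrocyte markers, 9 were higher and 0 lower (-0.47 to -0.39 against -0.12 to 0.80), and of 15 microglial markers 14 were higher and 0 lower (-0.54 to -0.30 against 0.03 to 0.89). For scale, the median difference over all genes was -0.005, with 22.6% of them called higher and 26.5% lower.

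Both doses of PLX3397 were then set against the same 17 epileptic vehicle mice, so the 2 comparisons share their controls. Those mice also defined which genes were low or raised in epilepsy. An opposite sign under PLX3397 is therefore not independent of the first comparison. At 3 mg/kg the genes that were low in epilepsy, Vgf, Sst and Cck, were higher than in epileptic vehicle mice (3 of 9 members, where 18.5% of all genes were called higher) and no member was lower (16.9% of all genes). At 30 mg/kg Sst and Cck were higher (2 of 9, against 16.3% of all genes), and again none was lower (15.7%). Npy and Pdyn, the 2 genes raised in epilepsy, did not pass at either dose.

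The 3 mg/kg mice gave 11.30, 11.77 and 12.12 for Cck (lowest, median, highest), and the 30 mg/kg mice 11.32, 11.76 and 12.04. It was above the epileptic vehicle median in 14 of 18 and 10 of 15 mice, yet 17 of 18 and 15 of 15 stayed below the lowest naive mouse. That mouse was at 12.06, close to the highest 30 mg/kg mouse. How many of all genes were as separate in these comparisons was not counted. Against epileptic vehicle the differences were 0.22 (SE 0.07, limma adjusted p 0.0121) and 0.21 (SE 0.07, adjusted p 0.0202). Against naive mice Cck was still lower, by -0.45 at both doses (limma adjusted p 0.00036 and 0.00037).

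Sst signal was 10.55, 10.91 and 11.48 at 3 mg/kg and 10.37, 10.92 and 11.59 at 30 mg/kg, above the epileptic vehicle median in 16 of 18 and 14 of 15 mice. The differences were 0.27 (SE 0.09, limma adjusted p 0.0106) and 0.30 (SE 0.09, adjusted p 0.00735). The 30 mg/kg group is unevenly spread over the runs: 13 of its 15 mice but 6 of the 17 epileptic vehicle mice are in the second. Within runs the 30 mg/kg difference in Sst was 0.02 (2 against 11 mice) and 0.20 (13 against 6), and with the run as a block it was 0.11 (limma adjusted p 0.257). The corresponding 3 mg/kg values within runs were 0.11 and 0.31 and the block kept the call (0.19, adjusted p 0.016). Cck was 0.21 and 0.25 within runs at 3 mg/kg, and 0.36 and 0.24 at 30 mg/kg.

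Vgf passed against epileptic vehicle at 1 dose and not at the other. Vgf signal at 3 mg/kg was 9.28, 9.68 and 11.24 (lowest, median, highest), and at 30 mg/kg 8.85, 9.36 and 10.14. All 18 mice at 3 mg/kg were above the epileptic vehicle median, and 10 of 17 epileptic vehicle mice were under the lowest of them. The difference from epileptic vehicle was 0.54 at the lower dose (SE 0.17, interval 0.20 to 0.88, limma adjusted p 0.00959), with 0.22 and 0.95 within runs. At 30 mg/kg it was 0.02 (SE 0.18, interval -0.33 to 0.38, limma adjusted p 0.935), and -0.28 and 0.34 within runs. Set directly against each other, 30 mg/kg was -0.51 from 3 mg/kg (SE 0.18, interval -0.86 to -0.16), with an unadjusted p of 0.00492 and a limma adjusted p of 0.103, and within runs -0.51 and -0.62. It was the only member with an unadjusted p under 0.05 between doses; none of the 9 passed after adjustment (of all genes 0.92% were called higher and 1.25% lower at 30 mg/kg). Against naive mice, Vgf differed by -0.14 at 3 mg/kg (limma adjusted p 0.713) and by -0.66 at 30 mg/kg (adjusted p 0.0323, lost without any of naive replicates 1, 2, 5 and 6, up to 0.0733).

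Npy signal was 10.32, 11.55 and 13.78 at 3 mg/kg and 10.38, 11.25 and 12.59 at 30 mg/kg (lowest, median, highest), above the naive range in 15 of 18 and 12 of 15 mice. Its differences from epileptic vehicle, 0.17 (interval -0.39 to 0.74) and -0.27 (interval -0.86 to 0.33), had limma adjusted p of 0.688 and 0.528. At 30 mg/kg the Npy value was -1.14 in the first run, with 2 treated mice, and 0.10 in the second. Pdyn signal was 8.81, 9.52 and 11.59, and 8.78, 9.49 and 9.96, with differences of 0.08 (interval -0.28 to 0.44) and -0.18 (interval -0.56 to 0.20) and limma adjusted p of 0.777 and 0.515. The intervals leave room for changes in either direction.

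Both doses were also set against the 6 naive mice used above. Against naive mice at 3 mg/kg, Npy (1.19, limma adjusted p 0.0192) and Pdyn (0.72, adjusted p 0.0284) were higher (2 of 9, with 11.5% of all genes) and Cck was lower (1 of 9, with 14.8%). This Pdyn call was lost with median scaling (0.64, limma adjusted p 0.0742), with the set block (0.70, adjusted p 0.058) and without naive replicate 2, 3 or 6 (adjusted p 0.0509 to 0.0739). At 30 mg/kg no member was higher (13.1% of all genes) and Cck and Vgf were lower (2 of 9, with 17.5%), while Npy stood at 0.75 (limma adjusted p 0.161) and Pdyn at 0.46 (adjusted p 0.181). Sst stood at -0.22 and -0.18 from naive mice under the lower and the higher dose (limma adjusted p 0.188 and 0.272), but passed as lower with the run block (-0.24, adjusted p 0.0451, and -0.32, adjusted p 0.00904) and with the set block (-0.28, adjusted p 0.0115, and -0.32, adjusted p 0.00348). Bdnf, Nptx2, Scg2 and Tac1 passed in none of these comparisons. From epileptic vehicle, the low and the high dose differed in Bdnf by 0.30 and 0.13, in Nptx2 by 0.27 and 0.07, in Scg2 by 0.08 and -0.20, and in Tac1 by -0.07 and -0.11, with limma adjusted p of 0.268 or more. Their highest mice were 11.26 and 10.80 for Bdnf, 12.14 and 10.87 for Nptx2, 12.99 and 11.45 for Scg2 and 8.46 and 8.52 for Tac1.

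**Figure D2:**
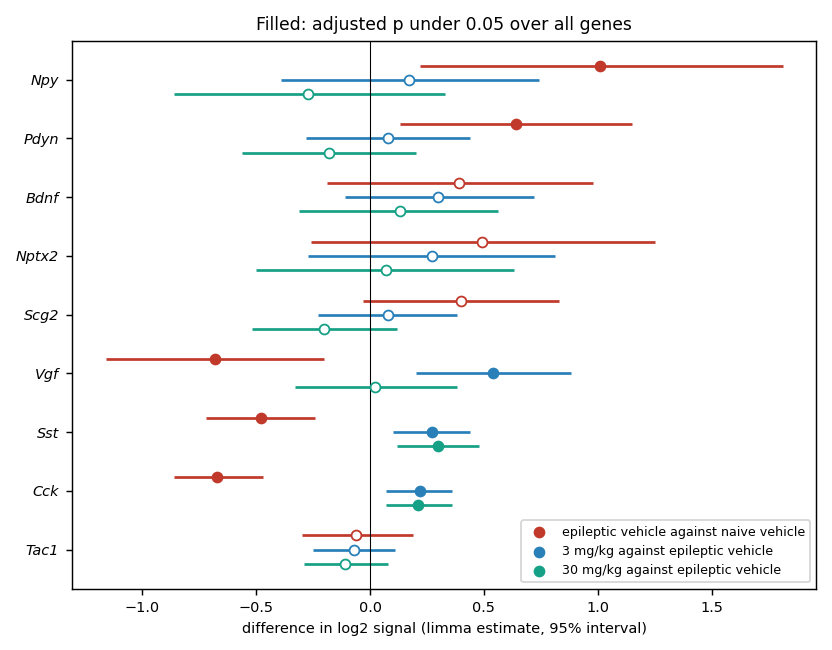
Difference in mean log2 signal with its 95% interval for the 9 genes in 3 comparisons: epileptic vehicle against naive, and each PLX3397 dose against epileptic vehicle, with filled points for a limma adjusted p under 0.05. Cck, Sst and Vgf lie below 0 in the first comparison, and Vgf is above 0 at 3 mg/kg (0.54) but near 0 at 30 mg/kg (0.02).

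Marker lists moved here too, and their part was not tested. Of all genes, 18.5% were called higher and 16.9% lower at 3 mg/kg, and 16.3% and 15.7% at 30 mg/kg. Relative to epileptic vehicle, 10 of the 16 pan-neuronal markers were higher and 0 lower under the 3 mg/kg dose, and 11 were higher and 1 lower under 30 mg/kg (list level -0.18 to 0.20 and -0.10 to 0.21). Of the 16 interneuron markers 5 were higher and 1 lower, and 4 higher and 1 lower (-0.13 to 0.14 and -0.08 to 0.09). Of the 17 pyramidal neuron markers 7 were higher and 2 lower, and 5 higher and 1 lower (-0.18 to 0.29 and -0.22 to 0.19). Of the 14 astrocyte markers, 5 and 7 were lower and 0 higher (-0.23 to 0.45 and -0.38 to 0.29), and of the 15 microglial markers 10 and 14 were lower and 0 higher (-0.19 to 0.38 and -0.56 to 0.15).

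Nptx2 signal was 10.68 or more in 5 mice and 9.62 or less in the other 51, and the 5 comprised 0 naive and 1 epileptic vehicle mouse and 2 from each PLX3397 dose, in 5 different sets of 8 consecutive sample numbers. These mice are singled out by the level of a member after the values were seen, so what follows is a description. Epileptic vehicle replicate 6 gave 11.09 for Nptx2, 13.22 for Npy, 10.84 for Bdnf, 11.32 for Vgf, 12.79 for Scg2 and 11.46 for Pdyn, and its Cck signal of 11.06 was the lowest of all 56 mice. Replicate 18 at 3 mg/kg gave 12.14 for Nptx2, 13.78 for Npy, 11.26 for Bdnf, 11.24 for Vgf, 12.15 for Scg2 and 11.59 for Pdyn. Every one of these 6 genes was thus near the top of the series in both animals.

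Replicate 9 at 3 mg/kg was high in Nptx2 (11.06), Npy (13.38), Bdnf (11.25), Vgf (10.64) and Scg2 (11.82), but its Pdyn signal was 9.51, close to its group's median of 9.52. Both 30 mg/kg mice, replicates 3 and 10, had the same pattern at lower levels, with Nptx2 at 10.87 and 10.68, Npy at 12.59 and 12.48, Bdnf at 10.80 and 10.63, Vgf at 10.14 and 9.79 and Pdyn at 9.67 and 9.53. A sixth animal, replicate 16 at 3 mg/kg, departed from the pattern in the opposite way: Scg2 was the highest of the series (12.99) and Pdyn (11.45), Npy (12.97) and Vgf (10.80) were high, but Nptx2 was 9.09. Sst and Tac1 of the 5 mice lay within the range of the other mice of their groups.

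The 5 mice did not hold the whole upper range of Npy and Scg2: other epileptic mice reached 12.98 for Npy, above both of the 30 mg/kg mice.

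The immediate early genes, which firing neurons induce within minutes, were read in the same mice, Fos first. In replicates 18 and 9 at 3 mg/kg it was 9.50 and 8.91, with 7.61 the highest among the rest of that group. Replicates 3 and 10 at 30 mg/kg gave 7.55 and 7.63, with 7.26 as the highest of the others, and epileptic vehicle replicate 6 gave 8.20, with 7.59 as the highest of the others. Fos was therefore above the remaining mice of its group in all 5. So was Junb, for instance at 8.95 in epileptic vehicle replicate 6 (others up to 8.41). The other immediate early genes did not all follow. In both 3 mg/kg and both 30 mg/kg mice Fosb, Arc, Egr1 and Egr4 were also above the rest of their groups, for instance Arc at 11.85 and 11.23 against at most 9.10, and at 9.75 and 10.23 against at most 9.41. In epileptic vehicle replicate 6 they were not, with Arc at 9.98 (others up to 10.14), Egr1 at 10.72 (up to 10.76), Egr4 at 7.67 (up to 7.85) and Fosb at 7.04 (up to 7.15). Homer1 was above the others in that mouse (10.05, others up to 9.68) and in both 3 mg/kg mice, but in neither 30 mg/kg mouse. Npas4 was within the range of the other mice in all 5. Its signal in them (6.89 to 7.03) lay close to that of the undetected Snap25 probe (up to 6.93), as did Fosb in replicate 6. Such low values cannot show whether these genes followed. All these comparisons were within each mouse's own group and leave out naive mice. Ranked from the highest over all 56 mice, replicates 3 and 10 at 30 mg/kg were 7 and 10 for Egr1 and 7 and 8 for Junb. For Fos they were 8 and 5, for Arc 12 and 6, and for both Fosb and Egr4 4 and 3. Replicates 18 and 9 at 3 mg/kg ranked 1 and 2 for each of these 6 genes. Epileptic vehicle replicate 6 ranked 3 for Fos and Junb and 11 for Egr1.

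With these 5 mice left out, an alternative added after seeing the data, the differences between epileptic vehicle and naive mice were 0.91 for Npy, 0.52 for Pdyn, -0.64 for Cck, -0.49 for Sst and -0.81 for Vgf. The Vgf difference between doses was -0.47. The mice were removed for the level of a member and all were epileptic, which also narrows the spread, so no p is read from this fit.

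**Figure D3:**
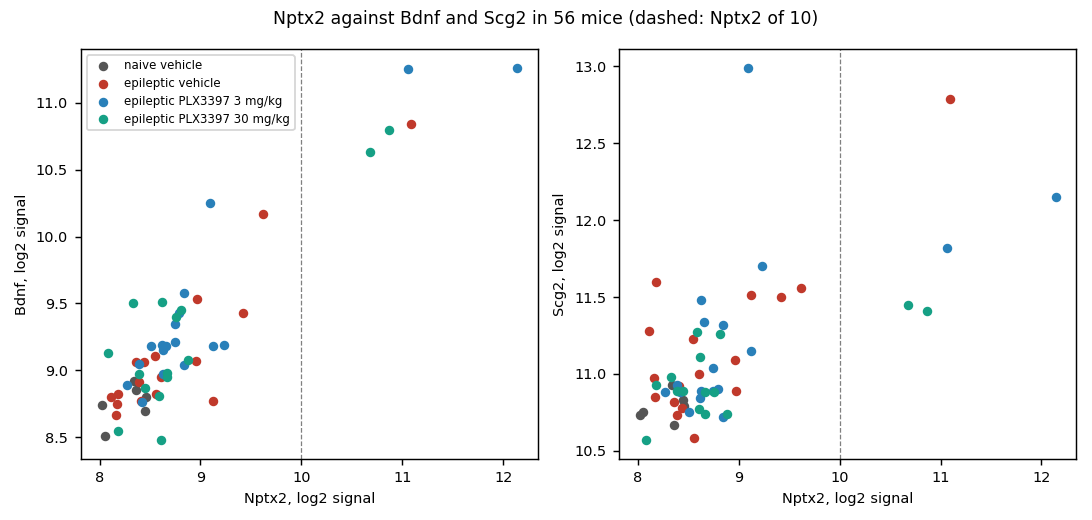
Log2 signal of Nptx2 on the horizontal axes against Bdnf (left) and Scg2 (right), 1 point per mouse for all 56 mice, coloured by group, with a dashed line at an Nptx2 signal of 10. The 5 mice right of the line also have Bdnf of 10.63 or more, and the mouse with the highest Scg2 (12.99) has an Nptx2 signal of 9.09.

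Whether members varied together between mice was then asked with signals centred on each group's mean. Pairs were called at an adjusted p under 0.05 by a two-sided permutation test within groups. Over all mice, 20 of the 36 pairs were called by Pearson r (17 positive, 3 negative) and 22 by Spearman rho. Because the 5 mice above stand apart as a cluster, the other 51 were also read, a choice made after seeing the data. The 5 were removed for the level of Nptx2, itself a member, so every p over the 51 mice is a description. Over those 51, 19 pairs passed by r (17 positive, 2 negative) and 13 by rho. Npy, Vgf, Nptx2 and Bdnf formed the closest group. Over their 6 pairs r was 0.76 to 0.9 and rho 0.67 to 0.78 in all mice. In the 51 mice r was 0.59 to 0.75 and rho 0.53 to 0.71. The adjusted p was 6e-05 for each of these r, the smallest the permutations allowed. Over the 51 mice, Vgf with Nptx2 was the tightest (r = 0.75, rho = 0.71). With the 2 mice farthest from the median of 1 gene of the pair left out, r for these pairs was 0.47 to 0.71. That gene was the first of the pair in the order Npy, Bdnf, Vgf, Nptx2, so the mice left out differed between pairs. Within runs r was 0.60 to 0.89 (23 mice) and 0.37 to 0.67 (28 mice).

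Vgf was lower on average in epileptic mice and Npy was higher. Over the same 51 mice they varied in the same direction from mouse to mouse (r = 0.69, rho = 0.67). Scg2 was tied less closely to those 4 genes (r 0.42 to 0.51, rho 0.25 to 0.40). Without the 2 mice farthest in the other gene of each pair, not in Scg2, r was 0.18 to 0.43. The lowest of these values were those with Vgf (0.18) and Bdnf (0.20). Pdyn went with Scg2 (r = 0.61, rho = 0.33, adjusted p 0.00769 for r by permutation), a relation that rests partly on the 2 mice farthest in Pdyn (0.29 without them) and was 0.32 and 0.70 within runs. Pdyn with Vgf was 0.46 overall but -0.12 in the first run and 0.78 in the second, so it did not hold within both.

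Over these 51 mice r of Sst with the other 8 members was -0.03 to 0.33. By r, only those with Vgf (r = 0.33, rho = 0.32, permutation adjusted p 0.0354 for r) and Bdnf (r = 0.33, rho = 0.34, adjusted p 0.0421) passed. The first was 0.56 and 0.52 within runs and the second 0.45 and 0.09. Over all 56 mice r of Sst with the others was -0.05 to 0.31, and 0.19 to 0.44 with sets of 8 removed as well. By rho over all 56 mice it passed with Nptx2 (0.36), Bdnf (0.36), Vgf (0.35) and Pdyn (0.30), with permutation adjusted p of 0.0141 to 0.0439. With sets removed, r of Sst was 0.44 with both Vgf and Pdyn (permutation adjusted p 0.00206 and 0.00256). With Bdnf it was then 0.23 (adjusted p 0.139). By rho with sets removed, Sst passed with Vgf (0.52), Pdyn (0.42) and Nptx2 (0.37), with permutation adjusted p of 0.000386 to 0.00995. Over the 51 mice Tac1 passed with Npy (r = 0.38, rho = 0.40, permutation adjusted p 0.0151 for r). It also passed with Vgf by r (r = 0.36, rho = 0.27, adjusted p 0.022). The first was 0.67 and 0.12 within runs and the second 0.62 and 0.15. In the same mice Cck had r near 0 with Sst (-0.03), Npy (-0.01) and Vgf (0.01). Cck was negatively related to Pdyn (r = -0.44, rho = -0.31, permutation adjusted p 0.00801) and Bdnf (r = -0.41, rho = -0.40, adjusted p 0.0151), but over all 56 mice no negative pair passed when arrays were scaled to 1 median. Set beside the promoters, the full TGACGTCA element is in Scg2 and in Sst. Over the 51 mice Scg2 passed by r with Npy, Vgf, Nptx2 and Bdnf. By rho it did not pass with Bdnf (0.25, permutation adjusted p 0.127) or Vgf (0.30, adjusted p 0.0767). Of those 4 genes, Sst passed by r with Vgf and Bdnf. Sst had r = -0.02 with Scg2 over the 51 mice, and 0.29 over all 56 with sets removed (permutation adjusted p 0.0573). Vgf and Nptx2 had no promoter to search, so whether they carry the element was not examined.

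**Figure D4:**
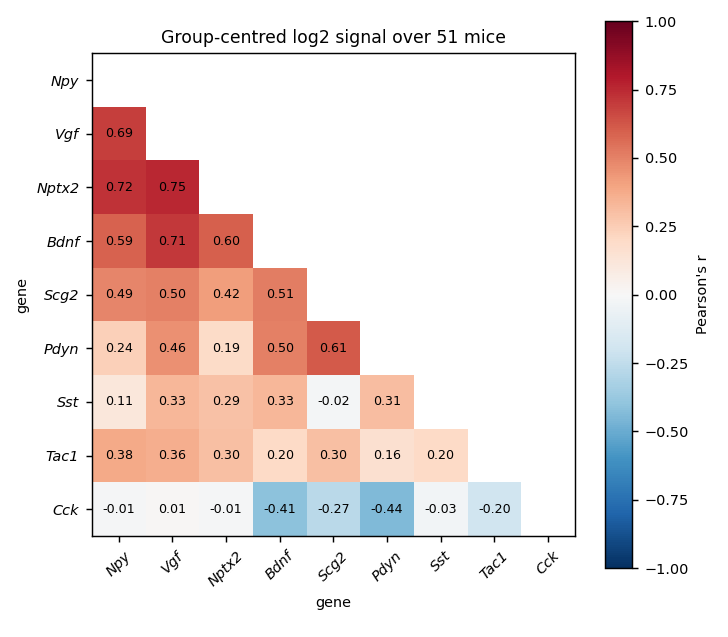
Pearson correlation (colour and number) between each pair of the 9 measured genes over 51 mice, after the mean of each group was removed. Npy, Vgf, Nptx2 and Bdnf form a block of positive values (0.59 to 0.75), and Cck is negative with Pdyn (-0.44) and Bdnf (-0.41); no negative pair passed over all 56 mice under median scaling.

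The genes most like each member, by r over all 56 mice on centred signal, are given as a description with no test. The 5 high mice weigh on these values, so r over the other 51 is added. Closest to Nptx2 were Gadd45b (0.96, and 0.75 without those mice), a gene induced by activity and stress, Drd4, the dopamine D4 receptor (0.92 and 0.79), and Itga11, an integrin subunit (0.89 and 0.43). Drd4 was also the closest to Npy (0.86 and 0.82), ahead of Inhba, the inhibin beta A subunit (0.84 and 0.76). Bdnf was closest to Bag3 (0.88 and 0.61), a co-chaperone, and Vgf to Ldha, lactate dehydrogenase A (0.90 and 0.77). For Scg2 it was Sh3bp2 (0.84 and 0.74), for Pdyn Slc2a13, a myo-inositol transporter (0.80 and 0.77), for Cck Brinp2 (0.86 and 0.84), for Sst Slc25a3, the mitochondrial phosphate carrier (0.81 and 0.83), and for Tac1 Nsmce1 (0.70 and 0.71). Leaving out the 5 mice moved r little for the partners named for Cck, Sst and Tac1, and far more for Itga11 with Nptx2 and Bag3 with Bdnf.

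Other genes of peptide signalling were read from lists. Of all genes, 22.6% were called higher and 26.5% lower in epileptic vehicle mice. Against epileptic vehicle the shares were 18.5% and 16.9% at 3 mg/kg, and 16.3% and 15.7% at 30 mg/kg. A count near these shares says little about a list. Among 13 other neuropeptide genes, 1 was higher in epileptic vehicle than naive mice, Grp, gastrin-releasing peptide (0.72, limma adjusted p 0.00783), and 1 was lower, Cort, cortistatin, a relative of somatostatin made by interneurons (-0.69, adjusted p 1.71e-10). The median difference of the list was 0.06. Under PLX3397 0 of 13 passed at 3 mg/kg, and at 30 mg/kg 1 was lower (Hcrt, -0.07, adjusted p 0.0405).

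Receptors for neuropeptides and BDNF, some for ligands that are not members, were mostly lower or did not pass. Of 24 with a probe, 12 were tested. Of these 12, 6 were lower and 1 higher in epileptic vehicle mice (list median -0.13). Sort1, the sortilin that carries the BDNF precursor, was lower by -0.80 (limma adjusted p 9.93e-10), Oprl1, the nociceptin receptor, by -0.44, Cckbr, the cholecystokinin B receptor, by -0.47 (adjusted p 0.0226) and Npy1r by -0.19 (adjusted p 0.0496). Ntrk2, which encodes the BDNF receptor TrkB, was higher by 0.37 (adjusted p 0.00205). The ligand Cck and its receptor Cckbr were thus both lower in epileptic vehicle mice. Against those same mice both were higher under PLX3397, Cckbr by 0.35 with the lower dose (limma adjusted p 0.0234) and 0.34 with the higher (adjusted p 0.0427). Sort1 was higher by 0.37 and 0.29.

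Of 13 granin and peptide-processing genes, 4 were higher and 5 lower in epileptic vehicle mice (list median -0.02). Scg3, secretogranin III, was higher by 0.42 (limma adjusted p 0.000207) and Chgb, chromogranin B, lower by -0.71 (adjusted p 0.000158), so the granins did not move one way. Qpct, which forms the pyroglutamate end of some peptides, was higher by 0.44, and Cadps2 and Cadps, which prime dense-core vesicles for release, were lower by -0.78 and -0.57. With 3 mg/kg, Chgb was higher by 0.30 (adjusted p 0.033) and Cadps2 by 0.29, and Qpct lower by -0.31.

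Of 20 trophic and activity-linked secreted factors, 5 were higher and 1 lower in epileptic vehicle mice (list median 0.11). Gpnmb (2.12, limma adjusted p 3.61e-08), a glycoprotein of activated macrophages and microglia, and Timp1 (1.04, adjusted p 0.0175), a metalloproteinase inhibitor, were among the former, and Nptx1, the constitutive relative of Nptx2, was the latter (-0.28, adjusted p 0.000963). Of 21 immediate early genes, 8 were lower and 0 higher (list median -0.16), led by Egr1 (-1.65, adjusted p 9.71e-06), and relative to epileptic vehicle 7 were higher and 0 lower under the 3 mg/kg dose, and 1 higher and 1 lower under 30 mg/kg.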

How the data were processed

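Illumina MouseRef-8 v2 arrays carried hippocampal RNA of 56 mice. The authors exported probe intensity from GenomeStudio (2011.1) without background subtraction or normalisation, with a deposited detection p-value per probe against negative controls. A deposited table holds the authors' log2 quantile-normalised values made with lumi (version not given in the sources used here). That table was used as an alternative and matched each array (largest difference 0.044). Here the raw intensity was log2-transformed and quantile-normalised. Of 25697 probes, 23978 had 1 gene and 1719 none listed in the platform annotation; those detected (p under 0.05) on 6 or more arrays numbered 14058, and 13265 of these had 1 gene. Each of 9893 genes was represented by its brightest probe on average. Bdnf and Pdyn had other probes, given in the text. limma (3.58.1, R 4.3.3) was fitted with the 4 groups in 1 model, Benjamini-Hochberg adjustment was over all genes, and a call is an adjusted p under 0.05. Each mouse was taken as a replicate.

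Pairs were tested by two-sided permutation within groups (100000 resamples, Python 3.11.15, numpy 2.4.6, scipy 1.17.1), adjusted over 36 pairs. Sets of 8 consecutive submitter numbers, and the 2 runs these form, served as possible batches; the sources do not call them extraction or scan batches. List levels are means of gene signals centred over all mice. Named genes were the members, list genes past the threshold, and for each member the genes of highest r. The members and lists were chosen with earlier results of these data known. The fits were tested on simulated data. Alternatives were median scaling, normexp background, the authors' log2 values, stricter or no detection filter, mean of probes, array weights, set, run or replicate block, only the 2 groups compared, leaving out each mouse, and, added after seeing the data, leaving out the 5 mice of highest Nptx2. The number of arrays limits the precision.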

Additional observations from a re-analysis of the deposited data

How the results depend on the processing

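Of the 5 members called in epileptic vehicle against naive mice, 3 passed with median scaling, which shifts the median of all genes to -0.057, and 3 to 5 when 1 mouse was left out. Npy was then 0.89 (limma adjusted p 0.0612) and Pdyn 0.44 (0.178). The count at 30 mg/kg against epileptic vehicle fell from 2 to 1 with the set block and to 1 with the run block, through Sst, and was 2 whichever mouse was left out, as the count at 3 mg/kg was 3. Between the doses it was 0 for each mouse left out and 1 without the 5 high mice. At 3 mg/kg against naive mice the count went from 3 to 5 with array weights, to 5 without the 5 high mice, and was 2 to 3 with 1 mouse left out. At 30 mg/kg against naive mice it went from 2 to 1 without a detection filter, 4 with array weights, 4 in a fit of only those groups, and 1 to 2 with 1 mouse left out. The replicate numbers only name the mice (pair correlations -0.43 to 0.39 over the comparisons). With the replicate block 4 members passed in epileptic vehicle against naive mice (Vgf -0.54, adjusted p 0.0567) and 1 at 30 mg/kg against naive. The 5 high mice were chosen for a member's level, so counts without them show no gain in evidence. The cause of the other changes was not tested.

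Changes of sign touched only members that had not passed. At 3 mg/kg against epileptic vehicle these were Tac1 (0.01, median scaling) and Pdyn (-0.03, replicate block). At 30 mg/kg against epileptic vehicle they were Bdnf (-0.01 with either batch block) and Nptx2 (-0.07 with the set block, -0.05 with the run block, -0.08 without the 5 high mice). Between doses they were Sst (-0.01 with median scaling, -0.04 and -0.08 with the set and run blocks), Cck (0.01 with array weights, 0.05 and 0.03 with the set and run blocks, 0.04 without the 5 high mice) and Nptx2 (0.00 with array weights). Leaving out 1 mouse also turned the sign of some of these, with ranges of -0.03 to 0.03 for Cck, -0.01 to 0.08 for Sst and -0.08 to 0.00 for Tac1 between doses, -0.08 to 0.21 for Nptx2 and -0.03 to 0.15 for Vgf at 30 mg/kg against epileptic vehicle, and -0.03 to 0.19 for Pdyn and -0.03 to 0.18 for Scg2 at 3 mg/kg against it.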
